A study of Mus musculus with 13 samples.

Results

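The comparison covered ESR1 ChIP-Seq libraries of primary mouse skeletal muscle fibroblasts that received 10 nM estradiol (E2) with or without the antagonist fulvestrant at 100 nM. Libraries were taken by their treatment label: 3 received E2 and 3 received E2 plus fulvestrant, so 6 of the 13 samples were compared. The other samples were 3 vehicle (ethanol and DMSO) libraries, 3 libraries with 100 nM fulvestrant alone, which serve here only as reference levels, and 1 input, not analysed here. All cells carried the Aromhum genotype, a human aromatase gene that raises estrogen in muscle, and were harvested 1 h after the hormone or its solvent was added. By the study's methods the fibroblasts came from the lower abdominal muscle, were enriched by preplating, were passaged once and were starved overnight in serum-free medium, and the antagonist or DMSO preceded the hormone. The age of the mice is not given in the sources used here. The labels do not say whether replicates came from separate mice or cultures, so p-values measure the spread between these libraries, which may be technical.

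ESR1 is a nuclear receptor that binds DNA when it is occupied by E2, chiefly at the estrogen response element (ERE), a palindrome that each monomer of the receptor dimer reads on its own side. It also reaches chromatin at sites of AP-1, the FOS and JUN dimer, without a palindrome of its own. Fulvestrant competes with E2 for the hormone pocket and leads to loss of the receptor protein. The glucocorticoid, mineralocorticoid, progesterone and androgen receptors share another palindrome, called GRE here. A ChIP-Seq peak is an interval where sequenced fragments pile up over the background, and its summit is the base with the deepest pile. A site bound in fewer cells and a site bound less in each cell cannot be told apart in such data, and the lack of a peak means that none was called at that depth.

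Below are 101 bases of the mouse genome (GRCm38.p6, the mm10 build, + strand) around 7 elements, chosen because they are the strongest sites of the comparison, the loci of Greb1 and Pgr, which are well known estrogen targets, and an ERE site that had a peak only with fulvestrant. The 5-base arms of the ERE, GGTCA and TGACC set 3 bases apart, are in capitals. Both strands were covered, since the palindrome reads alike on each, and 1 mismatch was allowed. The windows are chr6:100060017-100060117, chr16:25220702-25220802, chr10:33558193-33558293, chr11:53314829-53314929, chr12:16760487-16760587, chr9:8732974-8733074 and chr2:14633658-14633758 in the order shown. Those of Zcchc10 and Pgr hold 1 mismatch, and the others match exactly.
Rybp distal: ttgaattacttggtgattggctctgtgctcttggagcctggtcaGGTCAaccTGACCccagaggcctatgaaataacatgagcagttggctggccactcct
Tprg distal: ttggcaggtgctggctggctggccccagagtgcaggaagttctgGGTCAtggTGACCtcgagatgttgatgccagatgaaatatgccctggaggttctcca
Clvs2 intronic: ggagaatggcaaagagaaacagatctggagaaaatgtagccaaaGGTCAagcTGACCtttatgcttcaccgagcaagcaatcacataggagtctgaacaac
Zcchc10 distal: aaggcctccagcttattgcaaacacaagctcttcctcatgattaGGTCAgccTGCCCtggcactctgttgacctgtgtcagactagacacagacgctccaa
Greb1 intronic: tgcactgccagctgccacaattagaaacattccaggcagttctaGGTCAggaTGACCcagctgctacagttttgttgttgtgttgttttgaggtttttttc
Pgr distal: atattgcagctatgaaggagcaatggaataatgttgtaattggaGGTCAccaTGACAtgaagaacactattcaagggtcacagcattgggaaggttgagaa
Cacnb2 intronic: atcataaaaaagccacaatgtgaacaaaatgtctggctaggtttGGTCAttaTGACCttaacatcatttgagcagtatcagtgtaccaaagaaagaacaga

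A second set shows the GRE, with the 6-base arms AGAACA and TGTTCT set 3 bases apart in capitals and 1 mismatch allowed. It was added after the ranks of these sites had been seen, because the element recurred among sites that ranked stronger with fulvestrant. Prr5, Rhoj and Fndc3b mark sites with a peak in all libraries of both treatments once E2 replicate 1 was set aside. They were chosen for the largest gains in rank with fulvestrant among such GRE sites. Plce1, Zbtb20 and Alas1 mark sites with a peak only when fulvestrant was present. The windows are chr15:84639596-84639696, chr12:75304297-75304397, chr3:27758951-27759051, chr19:38555505-38555605, chr16:42999110-42999210 and chr9:106235571-106235671. The Zbtb20 element matches exactly, and each of the others holds 1 mismatch.
Prr5 distal: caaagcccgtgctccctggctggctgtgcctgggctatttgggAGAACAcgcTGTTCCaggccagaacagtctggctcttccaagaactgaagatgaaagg
Rhoj distal: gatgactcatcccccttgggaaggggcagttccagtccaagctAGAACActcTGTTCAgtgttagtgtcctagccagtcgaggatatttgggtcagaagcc
Fndc3b distal: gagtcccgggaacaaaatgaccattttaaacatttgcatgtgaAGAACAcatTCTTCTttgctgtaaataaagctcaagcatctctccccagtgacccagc
Plce1 intronic: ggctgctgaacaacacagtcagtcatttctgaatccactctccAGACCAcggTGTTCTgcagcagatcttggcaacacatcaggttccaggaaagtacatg
Zbtb20 intronic: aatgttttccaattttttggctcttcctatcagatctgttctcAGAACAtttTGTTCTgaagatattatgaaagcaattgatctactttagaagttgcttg
Alas1 intronic: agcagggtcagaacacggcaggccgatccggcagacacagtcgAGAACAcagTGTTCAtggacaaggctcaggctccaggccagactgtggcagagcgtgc

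The lists held 104571, 60910 and 68971 peaks with E2 and 40939, 50869 and 66218 with E2 plus fulvestrant. E2 replicate 1 stood apart from every other library of the comparison. Of its peaks 59.4% (Wilson 95% interval 59.1 to 59.7, counting error only) had a summit in repeat-masked sequence, against 5.57 to 6.73% in the other 5. Its background level, read from the peak statistics, lay at 39.1% of the typical library against 92.0 to 103%, its median summit held 10 fragments against 19 to 23, and 11.7 to 16.2% of its peaks overlapped a peak of another library in the comparison. An ERE lay within 100 bp of 0.755% of its summits, below the 1.06% found 2 kb upstream. In the other 5 libraries the share at the summit was 2.47 to 3.0% and the share upstream 0.552 to 0.593%. Region counts, fits and library tests are therefore given over 6 libraries and over the 5 without E2 replicate 1. Where 2 values stand for E2 they are those of replicates 2 and 3. Of the reference libraries, fulvestrant replicate 2 had 27.9% repeat-masked summits, against 6.51 to 7.79% in the other 5.

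Sites with a peak in every E2 library had one in every library with fulvestrant added more often than in none of them. Those with E2 only mostly ranked low in E2 replicates 2 and 3. Sites with a peak in only some libraries with fulvestrant are in no class here, and their number is not given. Peaks of all libraries were merged into regions wherever they shared at least 1 bp. Over 6 libraries, 473 of 180297 regions (0.262%) had a peak in each E2 library and none with the antagonist, 167 (0.0926%) showed the opposite pattern and 10098 (5.6%) had a peak in all 6. Over 5 libraries, 3510 of 97427 regions (3.6%) had a peak with E2 only, 188 (0.193%) with E2 plus fulvestrant only and 19734 (20.3%) in all 5. The 5-library rule is not symmetric, since an E2 only region needed 2 peaks and 3 absences while the opposite pattern needed 3 peaks and 2 absences. The lists also differed in length, with overlap between the treatments. When each list was cut to its 40939 strongest peaks, 199 regions had a peak with E2 only and 291 with E2 plus fulvestrant only over 6 libraries, so the difference turned its direction, while over 5 libraries the counts were 1634 and 329. Among peaks with a −log10 q-value of at least 10, the 5-library counts were 2453 with E2 only, 27 with E2 plus fulvestrant only and 3631 in all 5. These counts carry no p-value per region, since 3 libraries against 3 cannot go below p = 0.1 in an exact permutation test.

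E2 only regions lay in the lower part of the E2 lists. Over 5 libraries their median rank percentile, where a low value is a strong peak, was 69.2 in E2 replicate 2 and 63.9 in replicate 3, the median fold enrichment over background was 2.80 and 2.87, and the best ranks were 6841 and 7239. None of the 3510 was in the strongest 10% of the lists on average, against 4108 of the 19734 kept regions. Promoters, that is the 3 kb to either side of a transcription start (TSS), held 24.9% of E2 only, 16.5% of E2 plus fulvestrant only and 48.0% of kept regions. The 473 regions of the 6-library rule were of another kind. There 56.0% were at promoters, their median rank percentile was 24.9 in E2 replicate 1 against 65.0 and 54.5 in replicates 2 and 3, and 79.7% had a peak in fulvestrant replicate 2.

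An ERE, the receptor's own element, lay at a higher share of kept than of E2 only regions. It lay at 906 of 19734 kept regions (4.59%), at 91 of 3510 E2 only regions (2.59%) and at 9 of 188 E2 plus fulvestrant only regions (4.79%), against 2.38% of all 97427 regions. Over 6 libraries the shares were 2.89% of kept, 1.06% of E2 only and 4.79% of E2 plus fulvestrant only regions, against 1.56% of all. The share 2 kb upstream was 0.542% for kept and 0.655% for E2 only regions. AP-1 elements (TGAGTCA or its reverse complement TGACTCA, exact) lay at 6.16% of kept and 7.15% of E2 only regions, against 6.57% of all regions and 3.61% upstream. Many sites of the comparison also had a peak in cells without added hormone. A vehicle peak overlapped 90.9, 77.2 and 76.7% of kept regions by replicate, and 26.9, 10.2 and 13.4% of E2 only regions.

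Whether a peak was found again depended on its strength. The strongest 10% of the peaks of E2 replicates 2 and 3 was overlapped by the other E2 list at 99.97% on average, and by a list with fulvestrant at 98.9% (96.7 to 99.8% over 6 pairs). In the middle of the list, from 40 to 50% of its length, these shares were 73.8 and 50%, and in the weakest 10% 38.1 and 19.8%. Read the other way, peaks with E2 plus fulvestrant were found in the 2 E2 lists at 99.7% in the strongest and 45.8% in the weakest 10%, above the 98.7 and 29.1% found in the other lists of their own treatment. E2 replicate 2 peaks were found at 77.8% in E2 replicate 3 and at 44.8, 55.9 and 66.8% in the lists with fulvestrant, in the order of the lengths of those lists.

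Over all peaks, the mean share found between treatments lay near that within treatments, but this mean joins opposite directions. Peaks of E2 replicates 2 and 3 were found at 77.8 and 61.9% in the other E2 list. Lists with E2 plus fulvestrant held 38.5 to 66.8% of them. Peaks with E2 plus fulvestrant were found at 62.9 to 82.1% in those E2 lists and at 40.7 to 73.5% in their own treatment. The mean share found was 63.5% between and 62.4% within treatments over 5 libraries, which differed by 1.11 points (exact permutation test over libraries, p = 0.6, adjusted 1.0, two-sided as all such tests here). Over 6 libraries it was 49.3 and 48.5%, a difference of 0.763 points (exact permutation p = 0.7, adjusted 0.875). Adjusted values of these exact permutation tests were taken by Benjamini-Hochberg over the 5 library measures of each set, and p = 0.1 is the smallest that 10 or 20 arrangements allow. A p-value above the threshold does not show that the treatments were alike.

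**Figure D1:**
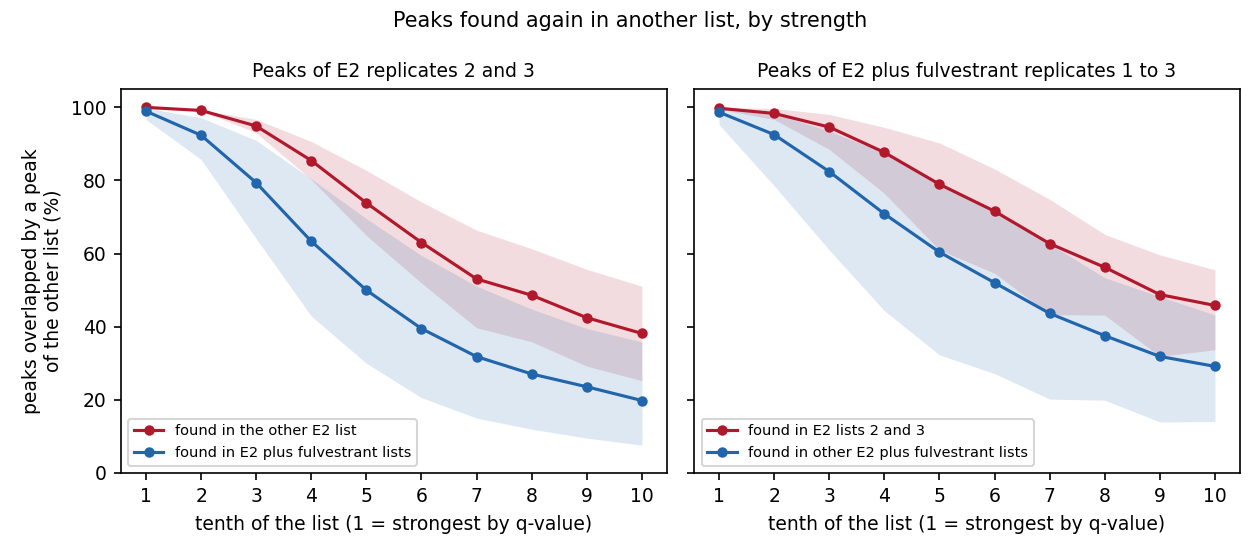
Share of peaks (y axis, percent) that overlapped a peak of another list, in 10 equal parts of the list from the strongest to the weakest (x axis), without E2 replicate 1. The left panel starts from E2 peaks and the right from E2 plus fulvestrant peaks, red lines show recovery in E2 lists and blue in E2 plus fulvestrant lists, the line is the mean over library pairs and the band their lowest to highest. Recovery of E2 peaks with fulvestrant falls from 98.9% in the strongest 10% to 19.8% in the weakest.

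Within kept regions the order of strength was shared between treatments. Peaks were ranked in each list by their q-value, and the Spearman correlation of ranks across the 19734 kept regions was 0.760 between the E2 libraries, 0.659 to 0.741 between E2 and E2 plus fulvestrant libraries and 0.570 to 0.724 among the latter. These are correlations across regions, which are not independent replicates, and depth and background are shared by all regions of a list. Ranks are taken within each list, so a change in signal common to a whole list cannot appear in them. The median fold enrichment at kept regions was 4.38 and 4.91 with E2 and 3.35, 3.69 and 4.00 with E2 plus fulvestrant. This difference in fold was not tested. With E2 replicate 1 the values were 0.213 to 0.448 across the 10098 regions of the 6-library rule. In fits with limma on normal scores of the ranks, 0 of 19734 regions (0.0%) passed an adjusted p of 0.05 with Benjamini-Hochberg adjustment, the smallest being 0.176. At an unadjusted p below 0.05, 318 regions scored lower and 673 higher with fulvestrant. With no difference between the treatments, a share of about 0.05 of all regions would fall below this threshold. With the replicate number as a block 0 passed as well, with a smallest adjusted p of 0.0690. Over 6 libraries limma called 0 of 10098 (0.0%), with 182 lower and 135 higher at an unadjusted p below 0.05 and a smallest adjusted p of 0.101.

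Groups that did not overlap were as frequent in either direction. At 1837 of 19734 kept regions (9.31%) both E2 libraries ranked stronger than all 3 E2 plus fulvestrant libraries, and at 1913 (9.69%) all 3 E2 plus fulvestrant libraries ranked stronger than both E2 libraries. Promoters held 49.4% of the former, 36.0% of the latter and 48.0% of all kept regions. Among the 100 of the latter with the largest rise in score, 12% were at promoters, 11 held an AP-1 element, 10 a GRE and 8 an ERE. Vehicle peaks overlapped 41, 13 and 20% of these 100 by replicate, and peaks with fulvestrant alone 76, 41 and 72%. Among the 100 of the former with the largest fall, 38% were at promoters, 4 held an AP-1 element, 0 a GRE and 5 an ERE, and vehicle peaks overlapped 85, 67 and 69%. Peaks with fulvestrant alone overlapped 77, 51 and 77% of these falls. Of all kept regions they overlapped 88.3, 71.7 and 87.2%, so the rises did not stand above either set. These sets were chosen by the same ranks, so the counts describe them and carry no test.

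ERE sites as a class had ranks that overlapped between the treatments. Their median rank percentile was 11.7 and 21.4 in E2 replicates 2 and 3 and 24.9, 12.1 and 11.9 in the E2 plus fulvestrant libraries (difference 0.237 points, exact permutation p = 1.0 with n = 2 and 3). Of the 906, 98 (10.8%) ranked stronger in both E2 libraries and 102 (11.3%) in all 3 E2 plus fulvestrant libraries. The shares of all kept regions were 9.31 and 9.69%. Over 6 libraries the ERE percentiles were 76.9, 3.82 and 9.71 with E2 against 11.9, 4.16 and 4.11, a difference of 23.4 points that rested on E2 replicate 1 (exact permutation p = 0.7 with n = 3 and 3). Promoter regions had median percentiles of 46.5 and 39.5 with E2 and 36.4, 45.8 and 50.2 with fulvestrant added (difference -1.16 points, exact permutation p = 0.9 with n = 2 and 3).

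The share of summits with an ERE overlapped between the treatments too. Its mean was 2.74 ± 0.36% (SD, n = 2) in E2 replicates 2 and 3 and 2.75 ± 0.27% (SD, n = 3) when fulvestrant was added, a difference of -0.00543 points (exact permutation p = 0.9). Among the 1000 strongest peaks of each list it was 32.1 and 24.9% with E2, 23.3, 33.5 and 33.3% with fulvestrant added, 11.5, 10.2 and 12.3% in vehicle, and 1.4% in E2 replicate 1. The vehicle libraries thus lay below the 5 libraries of the comparison, which overlapped between treatments. AP-1 elements were at 9.2 and 6.5% of these strongest peaks with E2 and at 5.9, 9.5 and 8.9% with fulvestrant added.

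**Figure D2:**
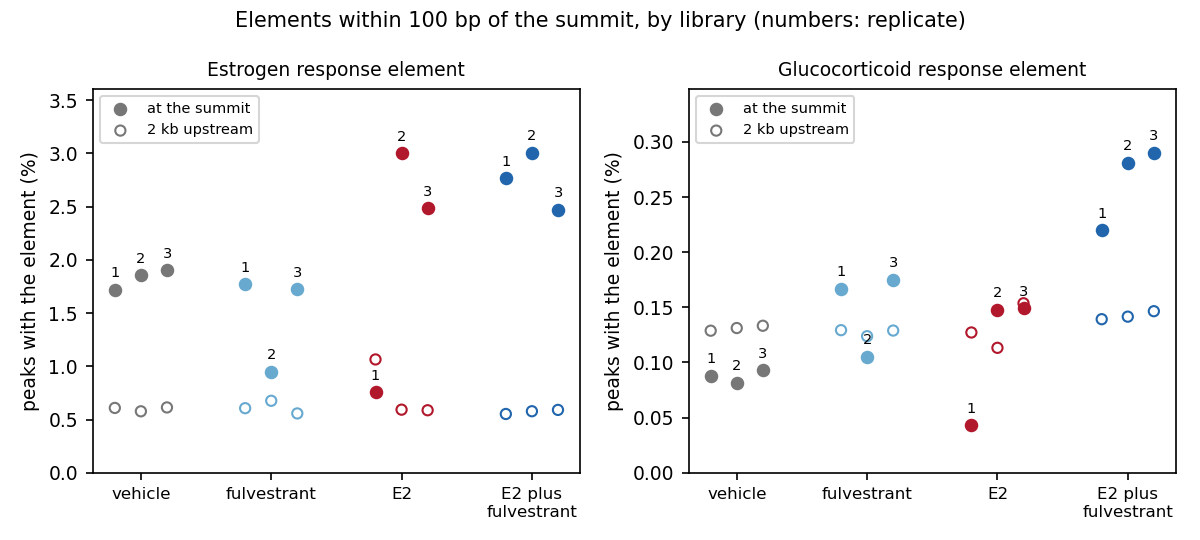
Share of peaks (y axis, percent) with an ERE (left) or a GRE (right) within 100 bp of the summit (filled) and in a window 2 kb upstream (open), for each of the 12 libraries (x axis). ERE shares lie between 2.47 and 3.0% in 5 libraries of the comparison and at 0.755% in E2 replicate 1, and the 3 E2 plus fulvestrant libraries have the highest GRE shares, 0.220 to 0.290%.

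Median peak widths at the same sites were lower in each E2 plus fulvestrant library than in E2 replicates 2 and 3, in a design whose p cannot pass 0.05. Over 5 libraries the median width at the 19734 kept regions was 883 and 1205 bp with E2 and 504, 609 and 794 bp with E2 plus fulvestrant. The groups did not overlap, with means of 1044 ± 228 bp (SD, n = 2) and 636 ± 147 bp (SD, n = 3), and the difference of 408 bp had the smallest p that 10 arrangements allow (exact permutation p = 0.1, adjusted 0.5). Over 6 libraries the medians at 10098 regions were 713, 952 and 1296.5 bp against 590, 669 and 847.5 bp, so E2 replicate 1 fell inside the range of the other group (987 ± 293 against 702 ± 132 bp, SD, n = 3 each, difference 285 bp, exact permutation p = 0.2, adjusted 0.875). The difference was 440 bp when all lists were cut to the length of the shortest. The median fold enrichment at these regions was 4.38 and 4.91 with E2 and 3.35, 3.69 and 4.00 with fulvestrant added. A called width grows with fragment number and signal over background as well as with the extent of binding, and their part in the result was not tested. With each library centred on its own median, limma called 0 of 19734 widths (0.0%) and 0 of 10098 (0.0%) at an adjusted p of 0.05 with Benjamini-Hochberg adjustment. At an unadjusted p below 0.05, 741 regions were narrower and 715 wider with fulvestrant over 5 libraries, and 245 and 172 over 6.

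**Figure D3:**
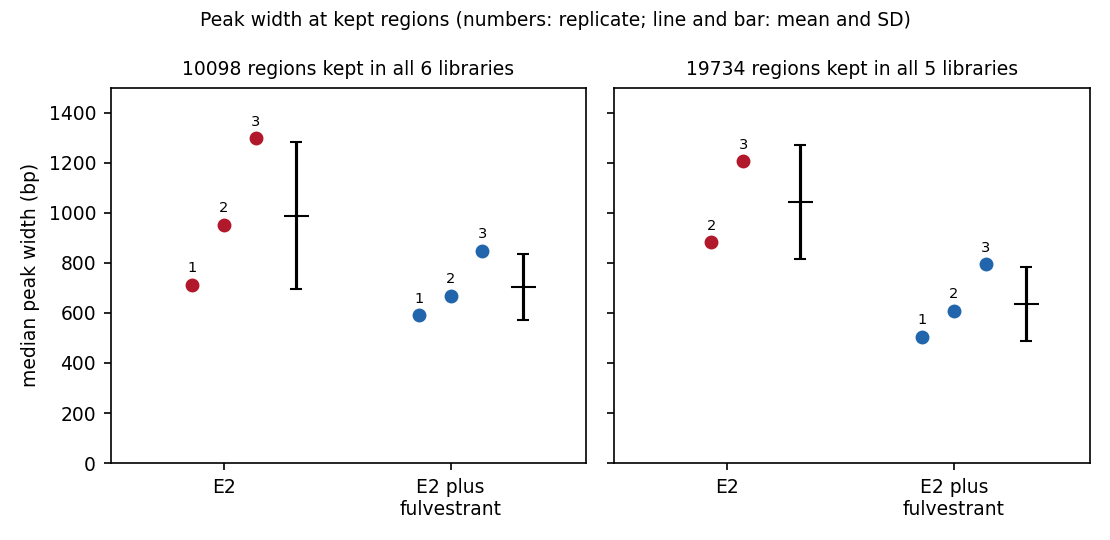
Median peak width in bp (y axis) at the regions kept in all libraries, for each E2 and E2 plus fulvestrant library (points) with the mean and SD of each group (line and bar). In the left panel, over 10098 regions, the E2 libraries run from 713 to 1296.5 bp and the others from 590 to 847.5 bp, and in the right panel, over 19734 regions without E2 replicate 1, the groups do not overlap.

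Summit positions differed no more between treatments than within them, as far as these tests can tell. The median distance between summits of the same region was 79.3 bp on average between treatments and 85.4 bp within them over 5 libraries (difference -6.04 bp, exact permutation p = 0.2, adjusted 0.5), and 104.6 and 104.3 bp over 6 (difference 0.222 bp, exact permutation p = 1.0, adjusted 1.0). At the 906 kept regions with an ERE, the summit lay a median of 24 and 27 bp from the element with E2 and 30, 25 and 25 bp with E2 plus fulvestrant (difference -1.17 bp, exact permutation p = 0.8 with n = 2 and 3). The element was sought within 100 bp of the summit of the region's best ranked peak, which bounds the distance in that library only.

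The 6 strongest kept sites all held an ERE. The top site lay at chr6:100058305-100061262, between genes, with Rybp as nearest protein-coding TSS 227412 bp away, and ranked 1 and 1 with E2 and 1, 1 and 1 with E2 plus fulvestrant. Its rank was 1, 2 and 2 in vehicle, 4, 4 and 4 with fulvestrant alone and 126 in E2 replicate 1. Its fold enrichment was 31.1 and 27.7 with E2 and 27.0, 32.2 and 33.2 with fulvestrant added, while its width was 1834 and 2223 bp against 1117, 1259 and 1419 bp. The levels overlapped and the widths did not.

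The next sites also held an ERE. The site near Tprg (chr16:25219855-25222704, between genes, 66063 bp from the TSS) ranked 2 and 2 with E2 and 3, 5 and 4 with E2 plus fulvestrant, and was 2307 and 2557 bp wide against 1011, 804 and 2044 bp. An intronic site whose nearest protein-coding TSS was Clvs2, a lipid-binding protein gene (chr10:33557418-33559483), ranked 4 and 6 against 5, 3 and 5, and an intergenic site 9793 bp from Zcchc10 (chr11:53314178-53316327) ranked 3 and 3 against 9, 4 and 2. All of these ranked between 3 and 7 in the vehicle libraries too. E2 replicate 1 placed the Tprg site at rank 8408 and the Clvs2 site at 22593. The remaining strong sites, in an intron of Tacc1 and near Gm14215, ranked 7 and 4 against 4, 2 and 3 and 5 and 5 against 6, 8 and 6. In limma with Benjamini-Hochberg adjustment none of these sites had an adjusted p below 1.0.

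At Greb1, an early estrogen target, the intronic site with an exact ERE (chr12:16760253-16760831, 3319 bp from the TSS) ranked 685 and 3297 with E2 and 1032, 817 and 739 with E2 plus fulvestrant. It ranked 4902, 5816 and 6805 in vehicle and 7459 and 9753 in fulvestrant replicates 1 and 3, with no peak in fulvestrant replicate 2. Each of the 5 libraries with E2 thus ranked it above each vehicle library, and the treatments compared overlapped. A second site 7675 bp from the Greb1 TSS (chr12:16764625-16765287) ranked 2746 and 7073 with E2 and 864, 562 and 1389 with fulvestrant added. Its groups did not overlap, with a score higher by 0.95 (SE 0.39) with fulvestrant and an adjusted p of 0.989 in limma with Benjamini-Hochberg adjustment. Another intronic site (chr12:16790380-16790832) ranked 3137 and 13232 against 16128, 2192 and 3494.

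Pgr encodes the progesterone receptor, a classic estrogen-induced gene. Its strongest site, between genes and 147350 bp from the TSS (chr9:8751629-8753155), ranked 383 and 665 with E2 and 865, 920 and 630 with E2 plus fulvestrant, against 17594, 6592 and 4269 in vehicle. With fulvestrant alone a peak was called in replicate 1 only, at rank 15582. The fold enrichment of this site was 20.2 and 17.5 with E2 and 10.1, 11.5 and 14.9 with E2 plus fulvestrant. Its fold thus did not overlap between the treatments, while its ranks did. The score differed by -0.20 (SE 0.36) between the treatments, with an adjusted p of 1.0 in limma with Benjamini-Hochberg adjustment. At chr9:8739571-8741700 the ranks were 2055 and 3699 against 15581, 1715 and 4388, and at chr9:8732670-8734380, which holds the ERE printed above, 4101 and 10839 against 19009, 4304 and 13075. The latter lay in an intron, 166847 bp from the Pgr TSS and 7956 bp from that of Gm32014, with a repeat-masked summit. Its fold enrichment overlapped between the treatments, at 8.53 and 6.59 against 3.44, 6.92 and 4.93. At chr9:8739571-8741700 the fold was 10.1 and 8.56 against 3.37, 8.54 and 6.16. A region 62016 bp from the Pgr TSS (chr9:8837446-8838098) had a peak with E2 plus fulvestrant only, at ranks 34719, 17357 and 24100. E2 replicate 1 had no peak at any of these Pgr and Greb1 regions.

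Of the 5 sites with the smallest p among rises in score whose groups do not overlap, 4 had no vehicle peak, and the remaining site lay at Fkbp5. None of the 5 held a GRE or an ERE within 100 bp of the summit of its best ranked peak. Fkbp5 encodes a co-chaperone of steroid receptors and is a well known target of the glucocorticoid receptor. Its upstream promoter site (chr17:28511477-28514506, 1565 bp from the TSS) ranked 30977 and 34299 with E2 and 1898, 1070 and 2140 with E2 plus fulvestrant. The ranks were 29307, 26493 and 26994 in vehicle, 4763, 9351 and 5860 with fulvestrant alone and 50526 in E2 replicate 1. The 6 libraries with fulvestrant thus ranked it above all 6 without it. The fold enrichment was 3.04 and 3.05 with E2 against 6.22, 8.15 and 7.30, and the score change of 2.76 (SE 0.36) had an adjusted p of 0.260 in limma with Benjamini-Hochberg adjustment.

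Other sites of this kind were not at promoters. An intronic site whose nearest TSS was Hook1, a microtubule linker gene 173648 bp away (chr4:95793267-95794001), ranked 43032 and 51258 with E2 and 2300, 2039 and 1466 with E2 plus fulvestrant. It had no vehicle peak and ranked 19722 and 10175 in fulvestrant replicates 1 and 3, and its score change was 3.25 (SE 0.36; limma, Benjamini-Hochberg adjusted p = 0.176). An intronic site near Bmper, a BMP-binding protein gene (chr9:23283520-23286078), ranked 52786 and 58421 against 9727, 5836 and 8401, with no vehicle peak. In E2 replicate 1 it ranked 3912, a stronger place than in any other list. An intronic site with an AP-1 element near Ptprg, a receptor phosphatase gene (chr14:12057712-12060106), ranked 21131 and 20892 against 1244, 346 and 563. A site 111987 bp from Avpr1a, the vasopressin receptor gene (chr10:122560027-122560912), ranked 57783 and 49096 against 4103, 2598 and 10687. Adjusted p-values of the last 3 were 0.260 in limma with Benjamini-Hochberg adjustment.

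Most of the sites chosen in the same way among falls in score had peaks without added hormone. The promoter of Dnajb1, a heat shock co-chaperone (chr8:83608171-83609664, 65 bp from the TSS), ranked 5749 and 4399 with E2 and 26201, 35239 and 22279 with E2 plus fulvestrant. It ranked 8585, 3589 and 4857 in vehicle, 3781, 1901 and 3580 with fulvestrant alone and 5453 in E2 replicate 1, so only the libraries with both agents ranked it low. The promoter of Slc19a2, a thiamine transporter gene (chr1:164249086-164250493), ranked 8591 and 12985 against 36619, 47809 and 39234, and 9976, 7540 and 16721 in vehicle. An intronic site of Sema4d, a semaphorin gene (chr13:51747887-51751138), ranked 22058 and 11011 against 37151, 50590 and 62032. The score changes were -1.71 (SE 0.39), -1.83 (SE 0.41) and -2.00 (SE 0.44), and over the 8 sites of this kind adjusted p-values ran from 0.529 to 0.656 in limma with Benjamini-Hochberg adjustment. The others lay near Usp17le, Ldlrad4, Mocs2, Nepro and Kif4. None of the 8 held an ERE, a GRE or an AP-1 element within 100 bp of its summit.

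**Figure D4:**
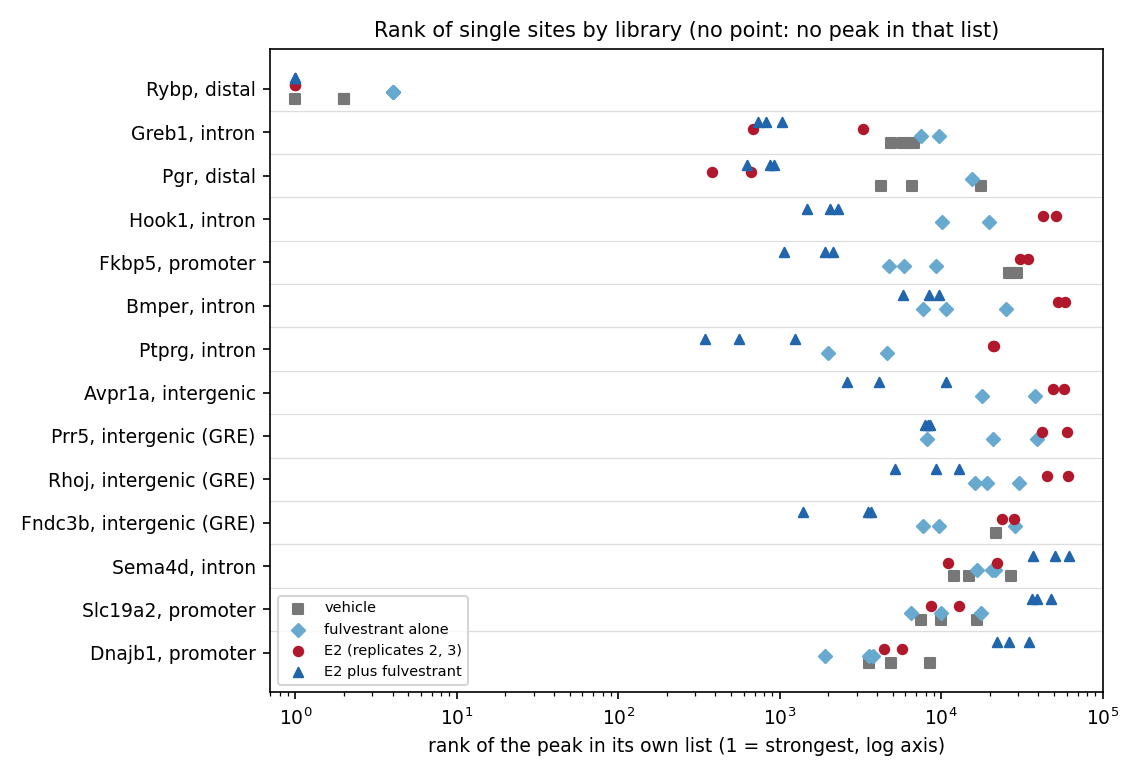
Rank of the peak in its library's list (x axis, log scale, 1 is the strongest) at 14 sites named in the text, with vehicle as grey squares, fulvestrant alone as light blue diamonds, E2 replicates 2 and 3 as red circles and E2 plus fulvestrant as blue triangles, and no point where no peak was called. At the Fkbp5 promoter the 6 libraries with fulvestrant rank between 1070 and 9351, and at the Dnajb1 promoter the 3 E2 plus fulvestrant libraries rank between 22279 and 35239, behind all others.

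The best ranked E2 only regions held no ERE. The promoter of Usp6nl, a GTPase-activating protein gene (chr2:6322754-6323726), ranked 6841 and 15698 in E2 replicates 2 and 3 and 5833 in replicate 1. It had peaks in vehicle replicate 1, at rank 10491, and in fulvestrant replicate 2, at rank 7406. The promoter of Ddrgk1 (chr2:130664297-130664958) ranked 12994 and 7239 with E2, and 5871, 7375 and 11763 with fulvestrant alone. An intergenic region near Gm42855 (chr5:17005567-17007735) ranked 10985 and 9381 and had no peak in any other library. The others were at promoters of Aldh4a1, Ubn2, 4930555B11Rik and Gm16379 and in an intron near Swap70. Of these 8 regions, 5 had a peak in at least 1 vehicle library and 7 in at least 1 library with fulvestrant alone.

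The best ranked E2 plus fulvestrant only regions lacked vehicle peaks. The intronic site with an exact ERE near Cacnb2, a calcium channel subunit gene (chr2:14633237-14634115), ranked 10813, 7535 and 4170 with E2 plus fulvestrant and 30733 and 12667 in fulvestrant replicates 1 and 3. An intronic site of Il15ra, the interleukin 15 receptor gene (chr2:11712548-11713349), ranked 4044, 9933 and 12962, and an intronic site of Hdac4, a histone deacetylase gene (chr1:92156004-92156379), ranked 13239, 5132 and 8422. A promoter site of BB123696 (chr13:52736218-52736859) ranked 9002, 6699 and 9815. The intronic site of Plce1, a phospholipase gene (chr19:38555382-38555735), ranked 11804, 8457 and 18275 and had no peak in any other library. None of the 5 regions had a peak in E2 replicate 1.

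GRE elements lay at a higher share of summits in each E2 plus fulvestrant library than in any E2 library. They lay at 0.220, 0.281 and 0.290% of summits with E2 plus fulvestrant and at 0.0430, 0.148 and 0.149% with E2, against 0.0878, 0.0816 and 0.0931% in vehicle and 0.167, 0.105 and 0.175% with fulvestrant alone. The groups compared did not overlap. The share 2 kb upstream was 0.127, 0.113 and 0.154% in E2 replicates 1 to 3 and 0.139 to 0.146% with E2 plus fulvestrant, so the summits lay below it in E2 replicates 1 and 3 and above it in the other 4 libraries. The element was chosen after these values were seen, and no test is given. GRE elements lay at 7 of 188 E2 plus fulvestrant only regions (3.72%), at 4 of 3510 E2 only regions (0.114%) and at 54 of 19734 kept regions (0.274%). The share was 0.242% over all 97427 regions, near that of kept regions, and 0.147% in the window 2 kb upstream of kept regions.

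At most kept GRE regions the rank was stronger with fulvestrant, but the element was chosen because it recurred among such sites. A region took its elements from its peak with the best rank percentile over both treatments. Where fulvestrant ranked stronger, the summit with fulvestrant thus decided whether the region counted. The counts below describe these regions and carry no test. Of the 54, 48 had a higher score with E2 plus fulvestrant, and at 34 (63.0%) all 3 E2 plus fulvestrant libraries ranked stronger than both E2 libraries, against 9.69% of all kept regions. The opposite separation occurred at 1. The median score change was 0.76, against -0.03 for all kept regions and for those with an ERE and -0.00114 for those with an AP-1 element. Median rank percentiles among kept regions were 75.1 and 77.4 with E2 and 43.3, 33.3 and 38.9 with fulvestrant added. With the 6-library rule 4 of 11 regions separated this way (36.4%), against 3.56% of all kept regions of that rule. With no mismatch allowed, 2 of 2 did over 5 libraries. Peaks with fulvestrant alone overlapped 51, 25 and 50 of the 54 by replicate, and vehicle peaks 37, 24 and 26. Of all kept regions, peaks with fulvestrant alone overlapped 88.3, 71.7 and 87.2%, and vehicle peaks 90.9, 77.2 and 76.7%. The median distance from summit to element was 92 and 80 bp with E2 and 86, 57 and 52 bp with fulvestrant added, longer than at EREs. Each element was sought within 100 bp of the summit of the region's best ranked peak, which bounds the distance in that library only. These distances therefore cannot compare the treatments.

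**Figure D5:**
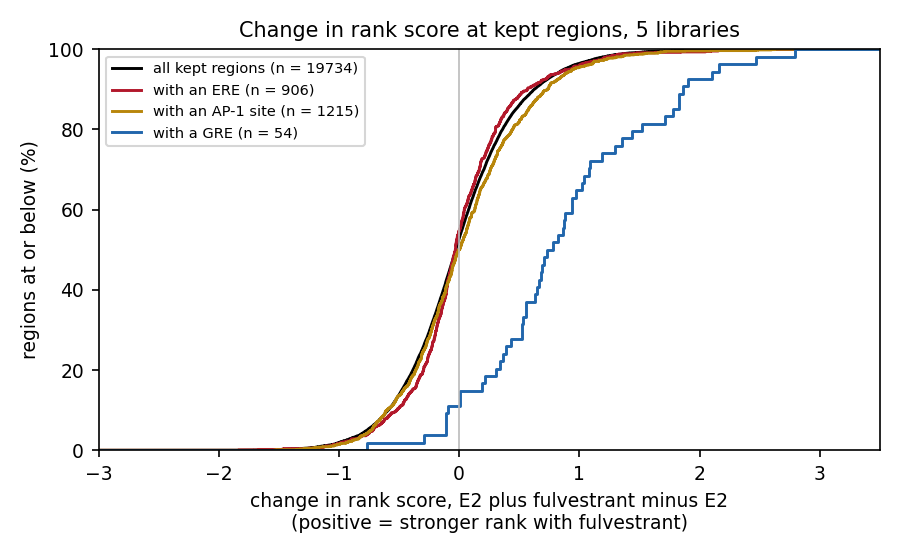
Cumulative share of kept regions (y axis, percent) by the change in rank score, E2 plus fulvestrant minus E2 (x axis, normal score units, above 0 is stronger with fulvestrant), for all 19734 kept regions, the 906 with an ERE, the 1215 with an AP-1 element and the 54 with a GRE. The GRE curve lies to the right, with a median of 0.76, and the other curves have medians between -0.03 and -0.00114. The GRE was chosen after these ranks had been seen.

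The kept sites printed above, near Prr5, Rhoj and Fndc3b, were chosen for the largest rises in score among the 54. Their changes were 2.79, 2.47 and 2.16, against the median of 0.76, so they show the upper end only. The site 29915 bp from Prr5, which encodes a subunit of mTORC2 (chr15:84638421-84640520), ranked 60473 and 42363 with E2 and 8303, 7971 and 8471 with E2 plus fulvestrant. It had no vehicle peak, ranked 20936, 8225 and 39023 with fulvestrant alone and 27315 in E2 replicate 1. The site 4001 bp from Rhoj, a small GTPase gene (chr12:75304009-75305311), ranked 45061 and 61121 against 9271, 12914 and 5152, again with no vehicle peak. The site 48507 bp from Fndc3b (chr3:27758095-27761243) ranked 28299 and 23957 against 3655, 1386 and 3524. An intronic GRE site 21400 bp from the nearest Fkbp5 TSS (chr17:28419333-28421899) ranked 3060 and 11760 against 1631, 1808 and 806, so Fkbp5 had a second site of this direction.

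A site 6836 bp from Tgfb2, a TGF-beta ligand gene (chr1:186712488-186713093), which holds an ERE as well, ranked 12683 and 13454 with E2 and 9879, 4360 and 5821 with E2 plus fulvestrant. This site was chosen after its values were seen. Among the 7 regions with E2 plus fulvestrant only, the Zbtb20 site ranked 14072, 22926 and 3848 and the site of Alas1, the first enzyme of heme synthesis, 25331, 10020 and 11737. The others lay near Babam2, Nt5c2, Runx1 and Myoc. None of these 7 had a peak in E2 replicate 1.

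More genes had an E2 only region than the opposite pattern, and which lists held more of them per kept region depended on E2 replicate 1. Each region was given to the nearest protein-coding TSS within 100 kb. Over 5 libraries 2213 of 21924 protein-coding genes (10.1%) had an E2 only region, 123 (0.561%) an E2 plus fulvestrant only region and 9312 (42.5%) a kept region. The peak number was higher in both E2 than in all 3 E2 plus fulvestrant libraries at 1574 of 15316 genes with a peak (10.3%) and lower at 256 (1.67%). Over 6 libraries these were 852 of 19417 (4.39%) and 121 (0.623%). The limits given for region counts, an asymmetric 5-library rule and lists of unequal length, hold for gene counts too. Gene counts were not repeated at equal list sizes, where the region counts over 6 libraries turned their direction. Genes with many sites have more chances of each, so lists are also described per 100 kept regions, of which all genes had 16.5 E2 only and 0.773 E2 plus fulvestrant only. Over 6 libraries all genes had 4.59 E2 only per 100 kept, TGF-beta pathway genes 7.27, collagen and matrix genes 2.94 and fibroblast identity genes 3.13. The fibroblast genes were thus above all genes over 5 libraries and below them over 6.

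Kcnma1, a potassium channel gene on the study's list of genes raised with E2, had the most E2 only regions. It had 10, with 24 kept and 1 with E2 plus fulvestrant only, and 87 and 111 peaks with E2 against 69, 67 and 118, so its peak numbers overlapped. E2 replicate 1 had 24 peaks there. Rerg, a RAS-like growth inhibitor gene named for its estrogen regulation, had 5 and 34 and 32 peaks against 20, 18 and 15. Gadd45a, a stress-response gene, had 5 and 27 and 29 peaks against 9, 12 and 17, and Reps2 had 5 and 14 and 14 peaks against 7, 6 and 7. E2 replicate 1 had 6, 8 and 11 peaks at these genes, so with it the groups overlapped at Rerg and Gadd45a and not at Reps2. Foxp1 and Tead1, both transcription factor genes, also had 5. Svil, Thbs2, Cstad and Zbtb20 had 4 each.

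Genes of the TGF-beta pathway, which drives fibrosis, had an E2 only region at 14 of 35 (40.0%), an E2 plus fulvestrant only region at 1 and a kept region at 32 (91.4%). Per 100 kept regions there were 17.0 E2 only, near the 16.5 of all genes. Tgfbr1, the type I receptor, had an E2 only promoter region (chr4:47353208-47354040) at ranks 24021 and 13508 and 3542 in E2 replicate 1, with peaks in vehicle replicates 1 and 2 at ranks 13395 and 32628. The gene had 6, 5 and 5 peaks with E2 and 2, 1 and 4 with E2 plus fulvestrant. Bmp4, a BMP ligand, had 2 E2 only regions, of which that 2735 bp from its TSS (chr14:46387395-46388136) ranked 15324 and 31249, and had 8, 4 and 6 peaks against 1, 2 and 2. Smad3 and Tgfbr2 had 2 E2 only regions each, beside 4 and 9 kept. Thbs1, an activator of latent TGF-beta, had the E2 plus fulvestrant only region. The median score change at the 100 kept regions of the list was -0.07, against -0.03 for all genes.

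Genes of collagens and matrix had an E2 only region at 18 of 37 (48.6%), an E2 plus fulvestrant only region at 1 and a kept region at 36 (97.3%), or 18.2 E2 only per 100 kept. Over all genes 10.1% had an E2 only, 0.561% an E2 plus fulvestrant only and 42.5% a kept region, with 16.5 E2 only per 100 kept. Col5a2, a fibrillar collagen gene, had 4 and 24 and 36 peaks with E2 against 6, 9 and 20, and Tnc, the tenascin C gene, had 3 and 13 and 20 peaks against 1, 4 and 13. E2 replicate 1 had 2 and 4 peaks at these genes. Col4a2, a basement membrane collagen gene, had 3 E2 only regions and the 1 with E2 plus fulvestrant only. Fibroblast identity genes had 24.2 E2 only regions per 100 kept, with E2 only regions at 11 of 22 genes (50%) and none with E2 plus fulvestrant only, and at 7 of 22 when regions were given to gene bodies with 10 kb flanks. A high rate was not particular to these genes, since endothelial marker genes had 44.4 per 100 kept, on 9 kept regions. Prrx1, a mesenchymal transcription factor gene, had 4 and 26 and 37 peaks against 14, 22 and 23, with 9 in E2 replicate 1. Pdgfra, the receptor that marks these fibroblasts, had 2.

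Among 28 estrogen target genes 6 had an E2 only region, 1 an E2 plus fulvestrant only region and 20 a kept region (71.4%), or 14.3 E2 only per 100 kept. Over all genes 10.1% had an E2 only, 0.561% an E2 plus fulvestrant only and 42.5% a kept region, with 16.5 E2 only per 100 kept. Esr1 itself had 3 E2 only and 5 kept regions and 15 and 19 peaks against 10, 12 and 12, with 11 in E2 replicate 1. Ccnd1, the cyclin D1 gene, had 1, at ranks 35343 and 43827. Of the coregulators of the receptor 5 of 24 had an E2 only region and none an E2 plus fulvestrant only region, with 12.3 per 100 kept. Of the AP-1 and immediate early genes 6 of 20 had an E2 only region and none the opposite, with 18.2 per 100 kept. Of the 19 with a peak, 6 had more peaks in both E2 libraries, against 10.3% of all genes with a peak. When regions were given to gene bodies with 10 kb flanks, 3 of 20 had an E2 only region and 3 had more peaks. That gave 8.11 E2 only per 100 kept, against 13.7 for all genes. Over 6 libraries none of the 20 had an E2 only region. Fos had 10 and 12 peaks against 3, 3 and 8, and Jun 11 and 13 against 9, 9 and 9. E2 replicate 1 had 11 at Fos and 7 at Jun, so with it the groups stayed apart at Fos and overlapped at Jun, as they did at Prrx1 and Esr1. Wnt pathway genes had 15.0 E2 only regions per 100 kept, at 12 of 38 genes, and cell cycle genes 8.16, at 4 of 29. Rbl1, a retinoblastoma family gene, had the E2 plus fulvestrant only region with the best mean rank percentile, at ranks 3448, 6132 and 4597, with a repeat-masked summit. Among markers of other cells, a kept region lay at 1 of 12 skeletal muscle, 1 of 10 hematopoietic and 5 of 10 endothelial genes, against 42.5% of all protein-coding genes. An E2 only region lay at 3 of the 10 endothelial genes and at none of the skeletal muscle and hematopoietic genes.

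The study's own gene lists leaned in opposite directions, but it chose them on these ChIP-Seq samples together with RNA-Seq and ATAC-seq, so they are not independent evidence of direction. Of 58 genes listed as raised with E2, 19 (32.8%) had an E2 only region, 2 an E2 plus fulvestrant only region and 49 a kept region, with 22.0 E2 only and 1.05 E2 plus fulvestrant only per 100 kept and a median score change of -0.13. Of 34 genes listed as raised with E2 plus fulvestrant, 7 (20.6%) had an E2 only region, 5 (14.7%) an E2 plus fulvestrant only region and 32 a kept region, with 8.46 and 3.85 per 100 kept and a median score change of 0.23. The medians over 6 libraries were -0.17 and 0.32. The 5 genes were Fkbp5, Plce1, Col4a2, Gda and Wee1. Fkbp5 had 18 and 19 peaks with E2 and 25, 22 and 19 with fulvestrant added, beside 11 in E2 replicate 1, 14, 7 and 6 in vehicle and 21, 26 and 17 with fulvestrant alone. Its E2 plus fulvestrant only region, at a promoter 908 bp from a TSS (chr17:28484493-28485909), ranked 16670, 16428 and 14905, but E2 replicate 1 had a peak there at rank 12994, so the region did not meet the 6-library rule.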

How the data were processed

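ESR1 ChIP-Seq was measured in 12 libraries of Aromhum muscle fibroblasts, of which 6 were compared, and the input was not analysed. Per the labels and methods, the authors trimmed reads (Trimmomatic 0.39), used Bowtie2 against the mm10 build, dropped duplicates (Picard 2.21.4) and mitochondrial reads and called peaks per library with MACS2. The labels and the methods differ on the aligner version, so none is given for Bowtie2 or MACS2. The deposited narrowPeak lists hold, per peak, a fold enrichment (a ratio to background), a −log10 p-value and a −log10 q-value, and a summit. Whether blacklisted peaks were removed before deposit is not stated. The lists hold no read counts, so the study's count model, its batch removal and its consensus counts could not be run, and depth was estimated from the background implied by each peak's fold and p.

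Peaks overlapping by at least 1 bp were merged over 12 libraries (228284 regions) or the 11 without E2 replicate 1 (165008 regions). A region took the rank of its strongest peak by −log10 q-value. Ranks were turned into normal scores, widths into log2 values centred per library, and both were fitted with limma 3.58.1 (R 4.3.3) with empirical Bayes and Benjamini-Hochberg adjustment. One value per library was compared by a two-sided exact permutation test over libraries. Scripts ran in Python 3.11.15 with numpy 2.4.6, pandas 2.3.3, scipy 1.17.1 and matplotlib 3.10.9, and the fit was tested on simulated data. Elements were searched within 100 bp of the summit, with a window 2 kb upstream as background, in GRCm38.p6 with its GENCODE annotation. A region took the elements of its peak with the best rank percentile among the libraries compared. A promoter was within 3 kb of a TSS, and a summit was repeat-masked when over 50% of its bases within 100 bp were soft-masked.

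The members and lists were chosen with earlier results of these data known, the GRE after its values were seen. Named sites, leaving out repeat-masked summits, were the 8 E2 only, 5 E2 plus fulvestrant only and 6 kept regions with the best mean rank percentile. To these came the 8 falls and 5 rises in score with the smallest p among regions whose groups do not overlap. The regions of Pgr and Greb1 were named without the repeat filter, and the Pgr summit with the printed ERE was 50.7% masked. Named genes were the 10 with the most E2 only regions and list members with an E2 only region over 6 libraries, with 2 or more over 5, or with an E2 plus fulvestrant only region. Other genes were named after their values were seen. All 357 list symbols matched the annotation. Same-numbered libraries deviated together, with correlations of 0.219, 0.111 and 0.108 across kept regions, each over 0.1, so the numbers were taken as pairs in a replicate block. Of the pairs with different numbers, E2 replicate 2 with E2 plus fulvestrant replicate 3 was at 0.157. Alternatives were a −log10 q-value of at least 10, equal list sizes, summit windows of 100 bp to each side, removal of repeat-masked summits, rank by fold, gene bodies with 10 kb flanks, and each library left out.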

Additional observations from a re-analysis of the deposited data

Results flagged for a closer look

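The share of summits with a GRE was compared also between the reference libraries, which lie outside the main measurement. It was 0.167, 0.105 and 0.175% with fulvestrant alone and 0.0878, 0.0816 and 0.0931% in vehicle, so each library with fulvestrant lay above each vehicle library, by 0.0615 points on average. The lowest fulvestrant value belonged to replicate 2, the library with 27.9% repeat-masked summits. The share 2 kb upstream was 0.129, 0.131 and 0.133% in vehicle, above the share at vehicle summits. The element was chosen after its values were seen, so no test is given.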

How the results depend on the processing

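With a −log10 q-value of at least 10, E2 only regions over 6 libraries numbered 885, E2 plus fulvestrant only 25 and kept 2178. The difference between the first classes was 860. Over 5 libraries these classes numbered 2453, 27 and 3631 of 20256 regions. Peaks past this cut numbered 21472, 13945 and 18077 with E2. They numbered 5852, 7915 and 10058 with E2 plus fulvestrant, so the groups did not overlap. At equal list sizes the classes with peaks in 1 treatment numbered 199 and 291 over 6 libraries (difference -92, reversed) and 1634 and 329 over 5 (difference 1305). In another setting each peak was replaced by the 100 bp to either side of its summit, and windows that overlapped were merged. E2 plus fulvestrant only regions then numbered 801 over 6 (kept 5990, difference -339, reversed) and 978 over 5. Removing repeat-masked summits gave a difference of 187 over 6. The share of kept GRE regions separated towards fulvestrant, 63.0%, was 36.4% over 6 libraries and 100% with no mismatch (2 regions). The same share of all kept regions was 9.69% over 5 libraries and 3.56% over 6. Leaving out each library in turn gave the following ranges for 6 and 5 libraries, where some 5-library fits leave 1 E2 library. E2 only regions ran from 695 to 3510 and 4251 to 19029, E2 plus fulvestrant only from 188 to 1209 and 385 to 1321, kept from 10036 to 19734 and 20083 to 25672, and the difference from -514 (without E2 plus fulvestrant replicate 1) to 3322 and 2930 to 18598. Width differences ran from 132 to 408 and 248 to 561 bp. Retention between minus within treatments ran from -8.03 to 6.84 and -2.31 to 3.77 points, summit distance from -14.1 to 19.2 and -12.7 to 4.25 bp, ERE rank from 0.237 to 36.4 and -4.67 to 5.48 points, promoter rank from -5.34 to -1.16 and -5.17 to 2.28 points and GRE share from -0.172 to -0.115 and -0.137 to -0.102 points. Region fits with limma called 0 in every setting. The cause of these shifts was not tested.

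With the replicate block, the width difference was 285 bp over 6 libraries (exact sign changes within pairs, p = 0.25, the smallest 3 pairs allow) and 342.5 bp over 5 (exact p = 0.5), ERE rank 23.4 and 4.55 points, promoter rank -3.19 and -5.06 points, and GRE share -0.150 and -0.137 points. The block gave 0 calls in limma and changed no other call. The background level of E2 replicate 1, 39.1% of the typical library, limits what its absences show, and its part in the counts was not tested.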
